A study of Danio rerio with 6 samples.

Results

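Translation factors and tRNA synthetases are the proteins that feed and drive the ribosome, and their genes were followed in sorted zebrafish intestinal epithelial cells at 5 and 3 days post fertilization (dpf). The genes were chosen by name: initiation factors whose symbol starts with eif and a digit, elongation factors of the eef1 and eef2 families with the enzymes named after them, the release factor etf1, and the aminoacyl-tRNA synthetases ending in ars1 or ars2. The eIF2 kinases, whose symbols start with eif2ak, were left out. This gave 116 of the 32520 genes listed in the files. Of the 116, 60 are initiation factors or their repressors, 22 belong to elongation and release, 18 are synthetases named as cytosolic and 16 are synthetases named as mitochondrial.

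RNA-seq libraries came from pools of TgKI(cldn15la:tdTomato) fish with 3 libraries at 5 dpf and 3 at 3 dpf, and the question was how these cells differ between the ages. Both ages carried the same knock-in, in which the red fluorescent protein tdTomato reports cldn15la, which encodes a claudin of the gut lining. At both ages heads were removed, the bodies were dissociated with trypsin and collagenase, and cells that were red and excluded the dead-cell dye 7AAD were sorted. Such a sort takes in any cell with the reporter, so a library averages over the cell types of the gut epithelium, and non-transgenic controls were not analysed here. All libraries carried batch 1, and 3 dpf replicate 3, whose treatment label reads 4 dpf, was grouped by its title.

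Protein synthesis starts when initiation factors bring the initiator tRNA and the small ribosomal subunit to the capped end of an mRNA and scan for the start codon. Elongation factors then deliver charged tRNAs and move the ribosome along, and the release factor recognises the stop codon. Synthetases charge each tRNA with its amino acid, with largely separate enzymes for the cytosol and for mitochondria. In growing cells the machinery is abundant, and its mRNAs are controlled together through growth and amino acid signalling.

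The libraries held 112315914 to 125456069 counts at 5 dpf and 102653637 to 113267448 at 3 dpf. The library of 5 dpf replicate 1 stood apart. Across genes, its log2 levels correlated with the other 5 dpf libraries at 0.923 and 0.928, against 0.983 between those 2. Its share of counts from the mitochondrial chromosome was 29.2%, while that of the remaining libraries was 7.91% to 11.4%. The summed level of 9 intestinal epithelial markers was 6568 to 15549 CPM (counts on TMM-scaled library sizes) at 5 dpf and 6074 to 7402 CPM at 3 dpf. Their sum hides changes in both directions: FABP2, a fatty acid-binding protein, rose 9.17-fold, and CDH17 and VIL1 also rose. All of these were highest in 5 dpf replicate 1. FABP2 had 5969, 1263 and 1667 CPM at 5 dpf, against 238, 474 and 259 CPM at 3 dpf. The transcription factors ELF3, HNF4A and cdx1b fell (log2 fold changes -1.32, -1.04 and -0.87). Among all genes tested 14.1% fell and 18.1% rose. Of the markers of other tissues, 2 of 9 for muscle fell. For exocrine pancreas 4 of 4 rose and for mesenchyme 8 of 9. For leukocytes 4 of 5 rose, as did 4 of 5 for skin and surface epithelium. For neurons 2 of 8 rose, for hepatocytes 1 of 6 and for erythroid cells 1 of 5. The counts for muscle, neurons, hepatocytes and erythroid cells are near the shares of all genes, so nothing is read from these counts. All muscle markers nevertheless had a negative log2 fold change with TMM scaling, from -2.97 to -1.04, and their sums did not overlap between the ages. The muscle markers summed to 99.1 to 1167 CPM at 5 dpf and 1752 to 2871 CPM at 3 dpf, the exocrine pancreas markers to 136 to 511 CPM at 5 dpf and 0.645 to 0.937 CPM at 3 dpf, and the mesenchyme markers to 1225 to 2201 CPM at 5 dpf and 479 to 760 CPM at 3 dpf. Leukocyte markers summed to 11.7 to 29.3 CPM at 5 dpf and 1.02 to 2.63 CPM at 3 dpf, and skin and surface epithelium markers to 3804 to 5866 CPM at 5 dpf and 2421 to 2887 CPM at 3 dpf. Neuron markers summed to 103 to 190.2 CPM at 5 dpf and 70.3 to 123 CPM at 3 dpf. Hepatocyte markers summed to 31.0 to 51.6 CPM at 5 dpf and 19.7 to 30.9 CPM at 3 dpf, with fabp10a 17.5-fold higher at 5 dpf. Erythroid markers summed to 89.8 to 176 CPM at 5 dpf and 84.2 to 161 CPM at 3 dpf. No listed marker of these tissues was at 0 in every library, and ela2l, a pancreatic elastase gene, was at 0 in all 3 dpf libraries. The part of these other cells in the results that follow was not tested.

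At 5 dpf the translation genes were mostly lower. Of the 114 with enough counts to test, 48 fell, 5 rose and 61 did not pass (edgeR's quasi-likelihood test, Benjamini-Hochberg adjusted p below 0.05 over all 22386 genes tested). Among all genes tested 14.1% fell, 18.1% rose and 32.1% passed in either direction, while 42.1% of the translation genes fell. The median log2 fold change, 5 dpf over 3 dpf, was -0.67 over the translation genes and 0.09 over all genes tested, and 98 of the 114 had a negative value with TMM scaling. In 63 genes every 5 dpf library lay below every 3 dpf library and in 7 every one lay above, against 24.2% below, 26.1% above and 50.3% either way among all genes tested. In each role where 0 genes rose, the count was also 0 at an unadjusted p under 0.05 in edgeR and with DESeq2. Of the genes that passed, 19 fell by at least 1 on the log2 scale, and 3 rose by as much. The 3 were EIF4EBP3, with an edgeR adjusted p of 0.0499, and both EEF1A1 copies, at no more than 2.82 CPM in any library. In bulk RNA, fewer cells of a type and less RNA per cell cannot be told apart.

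**Figure D1:**
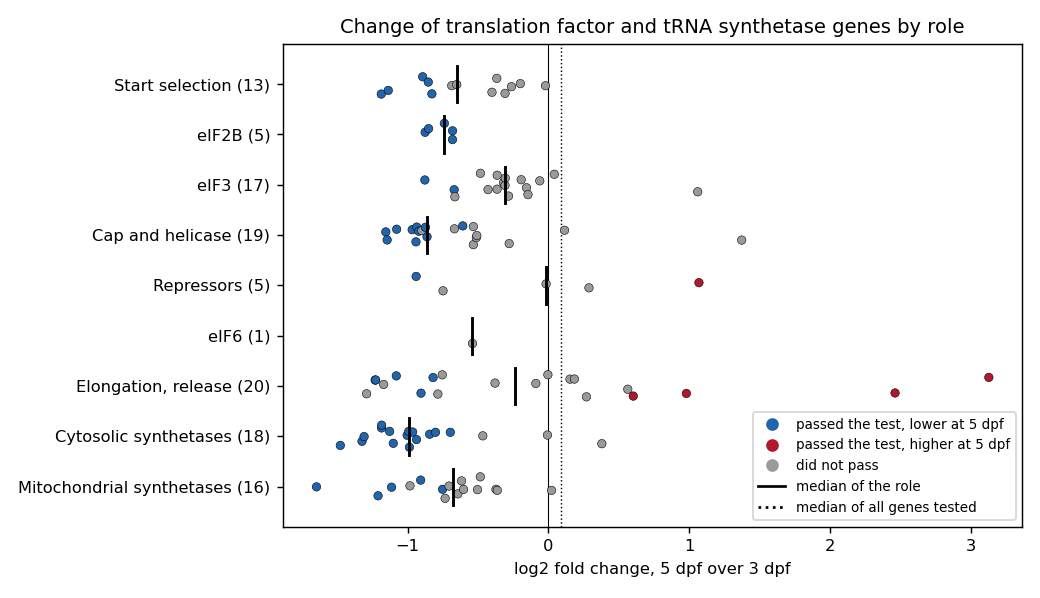
The log2 fold change (5 dpf over 3 dpf, horizontal axis) of each of the 114 genes tested is plotted in rows by role, with blue points for genes that fell, red for genes that rose and grey for genes that did not pass. Vertical bars give each role's median, which runs from -0.99 for the cytosolic synthetases to -0.02 for the repressors, beside the dotted median of all genes tested at 0.09.

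How many genes passed depended on single libraries. Counts of translation genes that fell were 80, 29 and 29 without 5 dpf replicates 1, 2 and 3 in turn, and 13, 17 and 41 without 3 dpf replicates 1, 2 and 3 in turn. In the same order 4880, 2159 and 2227, and then 1226, 1470 and 2409, of all genes tested fell, against 3149 with all libraries. The counts given below for each role stand against this loss or gain of calls over all genes. With both 5 dpf replicate 1 and 3 dpf replicate 3 left out 89 translation genes fell and 6 rose, and their median was -0.94. Of the 53 genes that passed, 13 passed in every one of the 6 omissions, and all 53 kept their sign in them. The omissions reuse the libraries in which these genes had passed, so a kept sign is no independent support. No such share over all genes stands beside these counts. With TMM scaling, the translation genes in 5 dpf replicate 1 lay above the other 5 dpf libraries by a median of 0.43 on the log2 scale, while all genes tested lay at -0.04. As a share of raw counts, their sum was instead lowest there, at 2.73% against 3.51 and 3.60% in 5 dpf replicates 2 and 3. The position of this library thus depended on the scaling.

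**Figure D2:**
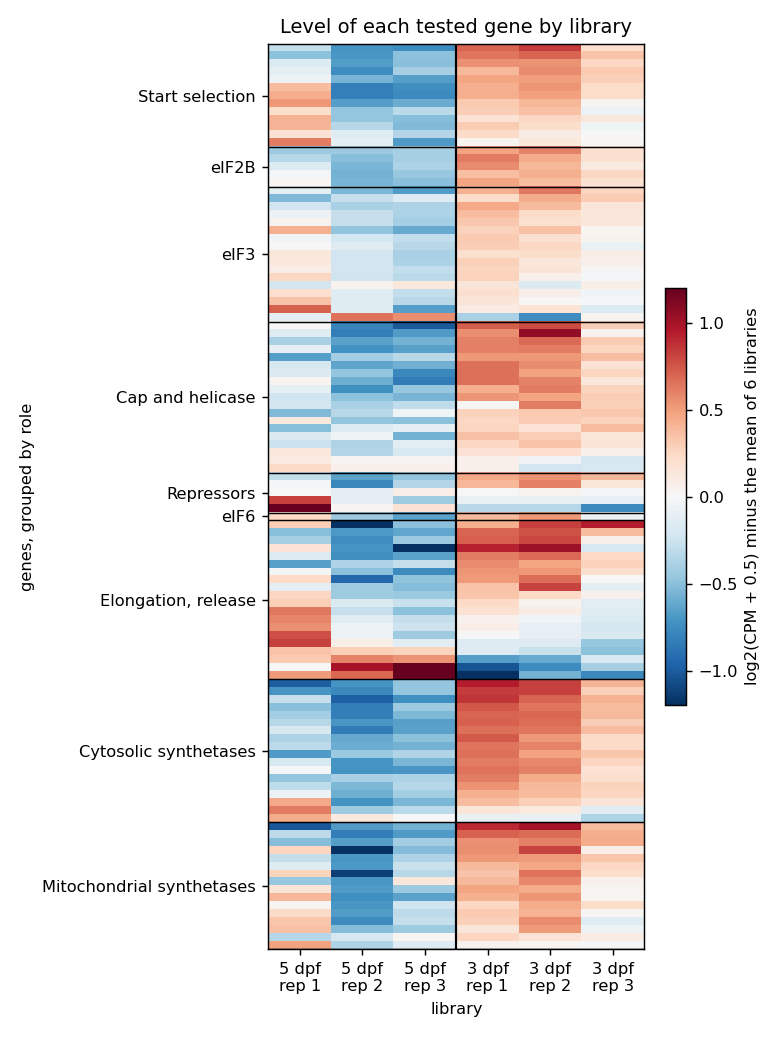
Each row is 1 of the 114 genes tested, grouped by role and ordered within a role by log2 fold change, and each column is 1 library, with 5 dpf on the left and 3 dpf on the right. Colour gives log2(CPM + 0.5) minus the gene's mean over the 6 libraries. Rows are mostly blue in 5 dpf replicates 2 and 3 and red in 3 dpf replicates 1 and 2, with 5 dpf replicate 1 and 3 dpf replicate 3 paler.

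Most cytosolic tRNA synthetase genes fell. Of 18, 15 fell and 0 rose, so that 83.3% fell, against 14.1% of all genes tested. The median log2 fold change was -0.99. The genes that fell covered leucine, threonine, valine, asparagine, glycine, glutamine, isoleucine, serine, glutamate with proline, tyrosine, methionine, alanine, cysteine and lysine. In 15 of the 18 genes, or 83.3%, all 5 dpf libraries lay below all 3 dpf libraries, against 24.2% of all genes tested. They were the same 15 that fell. Summed over the 18 genes, the level was 1971, 1545 and 1677 CPM at 5 dpf, against 3481, 3275 and 2711 CPM at 3 dpf. As a share of raw counts, which needs no scaling factor, the sum was 0.121, 0.175 and 0.212% at 5 dpf and 0.355, 0.328 and 0.301% at 3 dpf, with no overlap.

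Both leucine genes led the group. lars1a (chromosome 9, 54219304 to 54248182 of GRCz11), a short gene model named for leucyl-tRNA synthetase, had 12.3, 15.0 and 17.8 CPM in the 5 dpf libraries, against 48.1, 44.4 and 33.0 CPM at 3 dpf. Every 5 dpf library was lower than every 3 dpf library, and the 3 dpf mean was 2.78 times the 5 dpf mean (log2 fold change -1.48, SE 0.23, edgeR adjusted p = 0.00459). LARS1 (chromosome 21, 41026612 to 41070182), the other leucine gene, had 40.4, 38.4 and 47.8 CPM at 5 dpf, against 119, 117 and 80.7 CPM at 3 dpf and fell as well (log2 fold change -1.32, SE 0.22, edgeR adjusted p = 0.00556). The share of lars1a in the summed counts of both genes was 23.3, 28.1 and 27.2% at 5 dpf and 28.9, 27.4 and 29.1% at 3 dpf, ranges that overlapped. TARS1 (chromosome 5, 44346691 to 44371177), which charges threonine tRNA, had 113, 69.2 and 81.8 CPM at 5 dpf, against 249, 222 and 183 CPM at 3 dpf (log2 fold change -1.31, SE 0.25, edgeR adjusted p = 0.00850). VARS1 (chromosome 16, 10429770 to 10475814), the valine enzyme, had 78.0, 62.3 and 81.8 CPM at 5 dpf, compared with 187, 173 and 145 CPM at 3 dpf (log2 fold change -1.18, SE 0.21, edgeR adjusted p = 0.00628). In both genes the highest 5 dpf library stayed well under the lowest 3 dpf library.

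NARS1 and KARS1 were the most abundant synthetases by CPM. NARS1 (chromosome 21, 944715 to 965598), for asparagine, had 171, 127 and 155 CPM at 5 dpf, against 369, 365 and 296 CPM at 3 dpf (log2 fold change -1.18, SE 0.22, edgeR adjusted p = 0.00729). KARS1 (chromosome 7, 67429185 to 67451386), for lysine, had 279, 195 and 219.9 CPM at 5 dpf, against 394, 382 and 349 CPM at 3 dpf, the smallest change among the 15 (log2 fold change -0.70, SE 0.22, edgeR adjusted p = 0.0450). KARS1 passed in 1 of the 6 omissions of a library, with edgeR adjusted p up to 0.156, while lars1a, LARS1, TARS1, VARS1 and NARS1 passed in all 6. GARS1, QARS1, IARS1, SARS1, EPRS1, YARS1, MARS1, AARS1 and CARS1, named here after their values were seen to complete the group, had log2 fold changes of -1.13 to -0.80 and passed in 2 to 5 omissions. Over the group, the number that fell was 16, 13 and 13 without 5 dpf replicates 1, 2 and 3 in turn, and 5, 8 and 14 without 3 dpf replicates 1, 2 and 3 in turn.

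RARS1 (chromosome 21, 35327328 to 35378321), the arginine enzyme, had 153, 73.2 and 78.7 CPM at 5 dpf, against 109, 107 and 89.5 CPM at 3 dpf, with 5 dpf replicate 1 above and the other 5 dpf libraries below all 3 dpf libraries (log2 fold change -0.01, SE 0.31, edgeR adjusted p = 0.988). Its share of synthetase counts was 7.74, 4.74 and 4.70% at 5 dpf and 3.13, 3.28 and 3.30% at 3 dpf, shares that do not depend on scaling and did not overlap (two-sided exact permutation test, p = 0.1, the smallest p that 3 against 3 libraries allow). Since 15 of the 18 genes in that sum fell, a gene that holds its level gains share, and no separate change of RARS1 is read from it. Shares of other synthetases, NARS1 among them, did not overlap either. WARS1, for tryptophan, had 17.7, 7.58 and 8.62 CPM at 5 dpf, against 16.7, 15.7 and 14.3 CPM at 3 dpf and its libraries overlapped (log2 fold change -0.47, SE 0.33, edgeR adjusted p = 0.319). RARS1 and WARS1 were chosen after their values were seen.

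**Figure D3:**
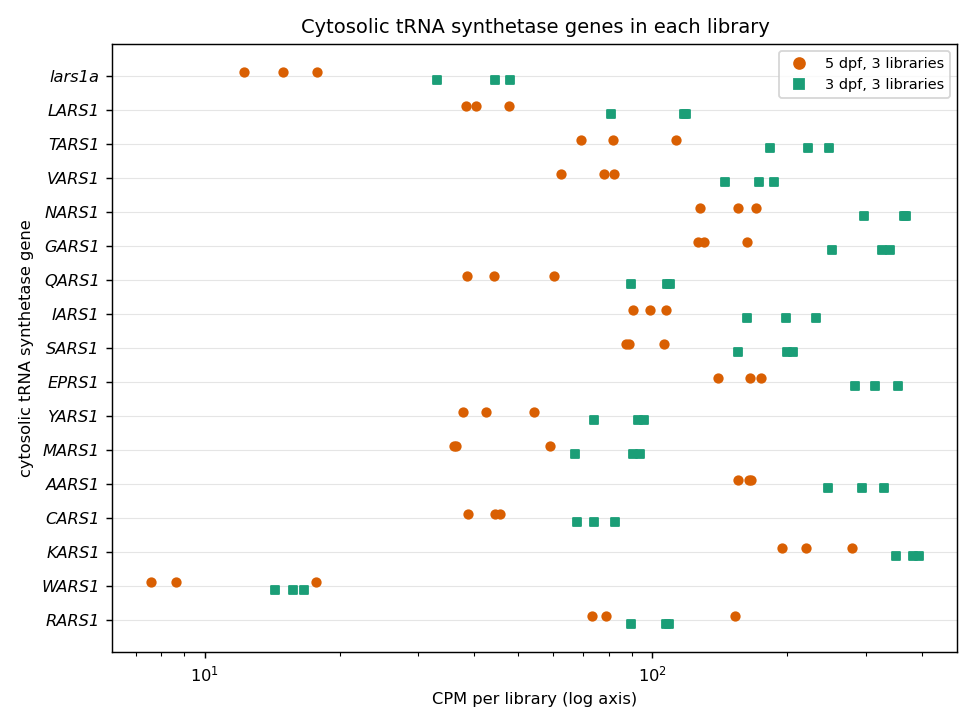
The level of 17 of the 18 cytosolic synthetase genes (rows) is plotted in CPM on a log axis, with orange circles for the 3 libraries at 5 dpf and green squares for the 3 at 3 dpf. In the upper 15 rows all circles lie left of all squares, and in WARS1 and RARS1 they overlap.

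In mammals 8 of these synthetases are held in a single complex, the multisynthetase complex, with scaffold proteins that include the product of EEF1E1. Of the 8, counting LARS1 but not lars1a for leucine, 6 fell, and of the 10 cytosolic synthetase genes outside the complex 9 fell. The median log2 fold changes were -0.96 in the complex and -1.06 outside it, so the fall was not particular to the complex. Among all genes tested 14.1% fell. EEF1E1 (chromosome 24, 8244085 to 8261786) had 7.75, 9.51 and 10.1 CPM at 5 dpf, compared with 18.7, 17.4 and 15.1 CPM at 3 dpf, without overlap, and fell (log2 fold change -0.90, SE 0.20, edgeR adjusted p = 0.0136). The other scaffold genes did not pass. AIMP2 had 67.2, 41.2 and 37.1 CPM at 5 dpf, against 65.8, 65.1 and 54.5 CPM at 3 dpf (log2 fold change -0.35). The more abundant AIMP1 copy (ENSDARG00000060036) had 81.3, 42.4 and 42.6 CPM at 5 dpf, against 65.5, 69.8 and 58.9 CPM at 3 dpf (log2 fold change -0.22). The AIMP genes and the phenylalanine subunits come from a list of partner factors that the name rule does not take, and were chosen after their values were seen. FARSB and FARSA, the 2 subunits of the cytosolic phenylalanine enzyme, both fell. FARSB had 37.2, 30.5 and 31.2 CPM at 5 dpf, compared with 72.0, 74.8 and 55.8 CPM at 3 dpf (log2 fold change -1.03, SE 0.20, edgeR adjusted p = 0.00826).

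Synthetases named as mitochondrial were far less abundant. Of 16, 5 fell and 0 rose, or 31.25% that fell against 14.1% of all genes tested, with a median log2 fold change of -0.67. In 7, or 43.75%, all 5 dpf libraries lay below all 3 dpf libraries, against 24.2% of all genes tested. YARS2 (chromosome 25, 2263857 to 2277132), the mitochondrial tyrosine enzyme, had 3.00, 3.92 and 4.27 CPM at 5 dpf, against 12.7, 13.6 and 8.71 CPM at 3 dpf, the lowest log2 fold change of all 114 genes (log2 fold change -1.65, SE 0.27, edgeR adjusted p = 0.00505). LARS2 (chromosome 16, 2899611 to 2990676), for leucine, had 7.63, 6.83 and 8.19 CPM at 5 dpf, against 16.5, 17.2 and 15.3 CPM at 3 dpf (log2 fold change -1.11, SE 0.19, edgeR adjusted p = 0.00555). IARS2 (chromosome 17, 25590127 to 25611557), for isoleucine, had 40.0, 30.1 and 37.7 CPM at 5 dpf, compared with 70.5, 70.0 and 61.7 CPM at 3 dpf (log2 fold change -0.91, SE 0.19, edgeR adjusted p = 0.0108). None of these 3 genes had a 5 dpf library within its 3 dpf range. YARS2 and LARS2 passed in all 6 omissions and IARS2 in 4. The number of mitochondrial synthetases that fell was 12, 4 and 4 without 5 dpf replicates 1, 2 and 3 in turn, and 3, 3 and 4 without 3 dpf replicates 1, 2 and 3 in turn.

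HARS2 (chromosome 14, 7377552 to 7395997) is listed with the mitochondrial enzymes by its symbol, but it is the only histidine synthetase gene in the name table. It had 72.8, 51.0 and 56.6 CPM at 5 dpf, against 149, 145 and 123 CPM at 3 dpf and fell (log2 fold change -1.21, SE 0.21, edgeR adjusted p = 0.00627), and it passed in all 6 omissions. Per kb of exon its level was 28.3 CPM per kb at 5 dpf and 65.4 CPM per kb at 3 dpf, against at most 7.98 at 5 dpf and 10.3 at 3 dpf among the other 15 mitochondrial synthetases. Which compartment its protein serves is not settled by the files. Without HARS2, 4 of 15 fell, or 26.7% against 14.1% of all genes tested, with a median log2 fold change of -0.64. AARS2, the mitochondrial alanine enzyme, completed the 5 that fell (log2 fold change -0.75, SE 0.22, edgeR adjusted p = 0.0343) and was named after its values were seen.

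A gene for each compartment was found for 12 amino acids, not counting lars1a. In 9 of these 12 pairs the cytosolic gene fell, in 4 the mitochondrial gene fell, and those 4, for alanine, isoleucine, leucine and tyrosine, were pairs in which both fell. The cytosolic gene had the lower log2 fold change in 8 pairs. Per kb of exon the cytosolic gene was 2.80 to 25.5 times as high as its mitochondrial partner at 5 dpf and 3.13 to 26.5 times at 3 dpf. Other genes of mitochondrial translation were lower as well. On a list of mitochondrial translation factors and related genes, 7 of 17 fell and 0 rose, with a median log2 fold change of -0.70. That is 41.2% that fell, against 14.1% of all genes tested. LRPPRC, which stabilises mitochondrial mRNAs, had 103, 79.9 and 106 CPM at 5 dpf, against 311, 310.4 and 199.9 CPM at 3 dpf (log2 fold change -1.51, SE 0.25, edgeR adjusted p = 0.00570). TSFM, the exchange factor of mitochondrial elongation, had 14.0, 8.07 and 9.54 CPM at 5 dpf, compared with 27.9, 32.6 and 20.5 CPM at 3 dpf (log2 fold change -1.36, SE 0.28, edgeR adjusted p = 0.0108). Both were below every 3 dpf library in all 5 dpf libraries, and both passed in all 6 omissions.

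The factors that bind the cap and unwind the mRNA fell in part. Of 19 genes of the eIF4 group 10 fell and 0 rose, or 52.6% that fell against 14.1% of all genes tested. The 10 include EIF4A3, a helicase of the exon junction complex that shares the name. The median log2 fold change was -0.86. In 16 genes, or 84.2%, all 5 dpf libraries were below all 3 dpf libraries, against 24.2% of all genes tested. The genes that fell encode eIF4E, which binds the cap, eIF4G, its scaffold, the helicase eIF4A and the helicase cofactors eIF4B and eIF4H. eif4e1c (chromosome 13, 18311410 to 18324469), a cap-binding protein of fish, had 79.2, 45.5 and 39.1 CPM at 5 dpf, against 131, 137 and 97.0 CPM at 3 dpf (log2 fold change -1.15, SE 0.31, edgeR adjusted p = 0.0254). EIF4A2 (chromosome 2, 7715810 to 7727248), a helicase gene, had 54.2, 33.5 and 37.2 CPM at 5 dpf, against 88.4, 126 and 62.0 CPM at 3 dpf (log2 fold change -1.14, SE 0.31, edgeR adjusted p = 0.0279). In both, 5 dpf replicate 1 was the highest 5 dpf library and 3 dpf replicate 3 the lowest 3 dpf library, and each passed in 2 of the 6 omissions, with edgeR adjusted p up to 0.0972 for EIF4A2.

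EIF4H (chromosome 15, 4585266 to 4616928) had 74.8, 62.7 and 66.3 CPM at 5 dpf, compared with 150.0, 158 and 122 CPM at 3 dpf, with little spread inside an age, and passed in all 6 omissions (log2 fold change -1.08, SE 0.19, edgeR adjusted p = 0.00696). EIF4B (chromosome 6, 39064824 to 39080701) had 255, 165 and 174 CPM at 5 dpf, against 415, 420.3 and 327 CPM at 3 dpf (log2 fold change -0.97, SE 0.25, edgeR adjusted p = 0.0237). EIF4G1 (chromosome 2, 16798652 to 16842699), the main scaffold, had 503, 371 and 386 CPM at 5 dpf, against 910.0, 850.2 and 649 CPM at 3 dpf (log2 fold change -0.93, SE 0.25, edgeR adjusted p = 0.0260). EIF4B and EIF4G1 each passed in 2 of the 6 omissions. Of the other 4 genes named EIF4G, all below their 3 dpf range at 5 dpf, 2 fell: the EIF4G3 copy ENSDARG00000074331 (log2 fold change -0.94) and the EIF4G2 copy ENSDARG00000020377 (log2 fold change -0.92). The second copies did not pass, EIF4G3 ENSDARG00000077215 at -0.53 and EIF4G2 ENSDARG00000057167 at -0.51. The count of cap and helicase genes that fell was 15, 3 and 4 without 5 dpf replicates 1, 2 and 3 in turn, and 1, 2 and 9 without 3 dpf replicates 1, 2 and 3 in turn.

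The helicase itself changed unevenly between its paralogs. eif4a1a (chromosome 7, 26510827 to 26518086), the most abundant gene of the group by CPM, had 691, 448 and 375 CPM at 5 dpf, compared with 1068, 1017 and 738 CPM at 3 dpf, a difference without overlap that missed the threshold (log2 fold change -0.90, SE 0.31, edgeR adjusted p = 0.0586). Its paralog eif4a1b had 357, 338 and 338 CPM at 5 dpf, against 346, 322 and 287 CPM at 3 dpf, with overlap (log2 fold change 0.11, SE 0.19, edgeR adjusted p = 0.684). Per kb of exon eif4a1a stood at 142 CPM per kb at 5 dpf and 266 CPM per kb at 3 dpf. The paralog eif4a1b stood at 151 CPM per kb at 5 dpf and 140 CPM per kb at 3 dpf. The share of eif4a1b in the counts of both was 34.1, 43.0 and 47.4% at 5 dpf and 24.4, 24 and 28.0% at 3 dpf, every 5 dpf library higher (exact permutation p = 0.1, the smallest possible). EIF4A3, a helicase of the exon junction complex that shares the name, had 111, 93.6 and 89.5 CPM at 5 dpf, against 190.2, 183 and 161 CPM at 3 dpf and fell (log2 fold change -0.86, SE 0.19, edgeR adjusted p = 0.0137). Among cap-binding proteins, EIF4E had 28.5, 18.4 and 22.4 CPM at 5 dpf, compared with 42.0, 47.5 and 37.2 CPM at 3 dpf and fell (log2 fold change -0.87, SE 0.22, edgeR adjusted p = 0.0212). Its relative eif4eb had 27.1, 19.3 and 21.6 CPM at 5 dpf, against 28.0, 28.6 and 25.9 CPM at 3 dpf and did not pass (log2 fold change -0.28, SE 0.19, edgeR adjusted p = 0.300). The share of eif4e1c in the counts of eif4e1c, EIF4E and eif4eb was 58.8, 54.7 and 47.1% at 5 dpf and 65.2, 64.2 and 60.6% at 3 dpf, lower in every 5 dpf library (exact permutation p = 0.1). EIF4E3, a cap-binding relative, fell to 15.7, 18.1 and 22.1 CPM at 5 dpf, against 27.9, 28.5 and 28.8 CPM at 3 dpf (log2 fold change -0.61, SE 0.19, edgeR adjusted p = 0.0446). EIF4E2 (log2 fold change -0.67), eif4e2rs1 (-0.53) and EIF4E1B (1.37), the oocyte form with at most 0.210 CPM in any library, did not pass.

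The proteins that hold eIF4E back did not share a direction. EIF4EBP3 (ENSDARG00000041607, chromosome 14, 6972868 to 6987649), whose product keeps eIF4E from eIF4G, had 99.2, 42.8 and 47.4 CPM at 5 dpf, against 33.0, 32.9 and 24.4 CPM at 3 dpf and was the only initiation gene that rose (log2 fold change 1.07, SE 0.35, edgeR adjusted p = 0.0499). The call rests on a narrow margin: it passed in 2 of the 6 omissions, with edgeR adjusted p up to 0.154, and ended with the RLE and library size scalings. Leaving out 5 dpf replicate 1, its highest library, brought the log2 fold change to 0.59 with an edgeR adjusted p of 0.0287. Its share in the counts of the 4 eif4ebp genes was 25.9, 15.8 and 15.4% at 5 dpf and 10.3, 9.77 and 8.27% at 3 dpf, again above in every 5 dpf library (exact permutation p = 0.1). eif4ebp1 had 59.7, 35.1 and 47.2 CPM at 5 dpf, compared with 79.6, 92.1 and 66.9 CPM at 3 dpf, below without overlap but short of the threshold (log2 fold change -0.75, SE 0.25, edgeR adjusted p = 0.0521). EIF4EBP2, the most abundant of the family, had 187, 173 and 198 CPM at 5 dpf, against 188, 192 and 184 CPM at 3 dpf (log2 fold change -0.02, SE 0.18, edgeR adjusted p = 0.952), and eif4ebp3 (ENSDARG00000054916) had 37.3, 19.3 and 15.5 CPM at 5 dpf, against 19.8, 19.8 and 19.5 CPM at 3 dpf (log2 fold change 0.29, SE 0.33, edgeR adjusted p = 0.531). eif4enif1 (chromosome 6, 40922572 to 40947671), which binds eIF4E and carries it to the nucleus, had 29.7, 23.1 and 26.2 CPM at 5 dpf, compared with 50.2, 53.2 and 48.0 CPM at 3 dpf, fell, and passed in all 6 omissions (log2 fold change -0.94, SE 0.18, edgeR adjusted p = 0.00817).

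All 5 subunits of eIF2B, or 100% of that role, fell, against 14.1% of all genes tested. eIF2B reloads eIF2 with GTP and is the step at which stress kinases slow initiation. EIF2B3 (chromosome 2, 34008798 to 34072218), the gamma subunit, had 18.1, 18.1 and 18.6 CPM at 5 dpf, against 34.8, 37.5 and 28.2 CPM at 3 dpf (log2 fold change -0.88, SE 0.18, edgeR adjusted p = 0.0111). EIF2B5 (chromosome 2, 2904080 to 2917148), the catalytic epsilon subunit, had 36, 32.0 and 34.6 CPM at 5 dpf, against 70.6, 62.4 and 52.1 CPM at 3 dpf (log2 fold change -0.85, SE 0.19, edgeR adjusted p = 0.0131). EIF2B1, the alpha subunit, had 17.8, 13.5 and 15.3 CPM at 5 dpf, compared with 29.8, 26.4 and 21.5 CPM at 3 dpf (log2 fold change -0.74, SE 0.21, edgeR adjusted p = 0.0305). In all 5 subunits, or 100%, every 5 dpf library lay below every 3 dpf library, against 24.2% of all genes tested. The log2 fold changes of the 5 lay between -0.88 and -0.68. EIF2B4, the delta subunit, was at -0.68, and EIF2B2, the beta subunit, at -0.68 with an edgeR adjusted p of 0.0494. These calls were fragile as a set, since the number that fell was 5, 2 and 2 without 5 dpf replicates 1, 2 and 3 in turn, and 0, 0 and 3 without 3 dpf replicates 1, 2 and 3 in turn, and 0 with library size as the only scaling.

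The factors that choose the start codon fell in part. Of 13 genes 5 fell and 0 rose, or 38.5% that fell against 14.1% of all genes tested. The median log2 fold change was -0.65, and all 13 had a negative value with TMM scaling. eif1axa (chromosome 5, 24002598 to 24008997), an eIF1A gene needed for scanning, had 36.5, 27.3 and 26.5 CPM at 5 dpf, against 73.2, 80.6 and 51.9 CPM at 3 dpf (log2 fold change -1.19, SE 0.24, edgeR adjusted p = 0.00977). Its paralog eif1axb, chosen after its values were seen, had 201, 109 and 106 CPM at 5 dpf, against 169.5, 179 and 165 CPM at 3 dpf and did not pass (log2 fold change -0.31, SE 0.28, edgeR adjusted p = 0.438). The share of eif1axa in both was 15.4, 20.1 and 20.1% at 5 dpf and 30.2, 31.1 and 23.9% at 3 dpf, lower in every 5 dpf library (exact permutation p = 0.1). EIF2S1 (ENSDARG00000005827, chromosome 17, 34244345 to 34254233), an alpha subunit gene of eIF2, the factor that carries the initiator tRNA, had 32.5, 28.1 and 32.6 CPM at 5 dpf, compared with 71.7, 74.9 and 58.2 CPM at 3 dpf (log2 fold change -1.14, SE 0.19, edgeR adjusted p = 0.00510). Both eif1axa and this EIF2S1 copy passed in all 6 omissions. The more abundant EIF2S1 copy (ENSDARG00000052178), also chosen afterwards, had 196, 123 and 136 CPM at 5 dpf, against 209, 216 and 162 CPM at 3 dpf, with overlap (log2 fold change -0.37, SE 0.25, edgeR adjusted p = 0.292).

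EIF2A (chromosome 18, 3552641 to 3571583) and EIF2D, which can deliver initiator tRNA apart from eIF2, also fell. EIF2A had 53.5, 37.6 and 42.4 CPM at 5 dpf, against 88.4, 88.0 and 71.5 CPM at 3 dpf (log2 fold change -0.89, SE 0.21, edgeR adjusted p = 0.0159). EIF2D had 15.3, 9.73 and 12.5 CPM at 5 dpf, compared with 21.9, 24.9 and 20.9 CPM at 3 dpf (log2 fold change -0.85, SE 0.22, edgeR adjusted p = 0.0234). EIF1 and EIF2S3B, the most abundant genes of this role, did not pass. EIF1, which guards the choice of the start codon, had 839, 506 and 340.3 CPM at 5 dpf, against 558, 598 and 553 CPM at 3 dpf, with 5 dpf replicate 1 highest of all (log2 fold change -0.02, SE 0.34, edgeR adjusted p = 0.968). EIF2S3B, the gamma subunit of eIF2, had 473, 378 and 328 CPM at 5 dpf, against 489, 445 and 420.0 CPM at 3 dpf, with overlap (log2 fold change -0.20, SE 0.23, edgeR adjusted p = 0.532). EIF1B, the fifth gene that fell, had 118, 83.7 and 77.9 CPM at 5 dpf, compared with 171, 175 and 151 CPM at 3 dpf (log2 fold change -0.83, SE 0.22, edgeR adjusted p = 0.0271), and its share in EIF1 and EIF1B was 12.4, 14.2 and 18.6% at 5 dpf and 23.5, 22.6 and 21.4% at 3 dpf (exact permutation p = 0.1). In this role the number that fell was 11, 3 and 3 without 5 dpf replicates 1, 2 and 3 in turn, and 2, 2 and 4 without 3 dpf replicates 1, 2 and 3 in turn.

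**Figure D4:**
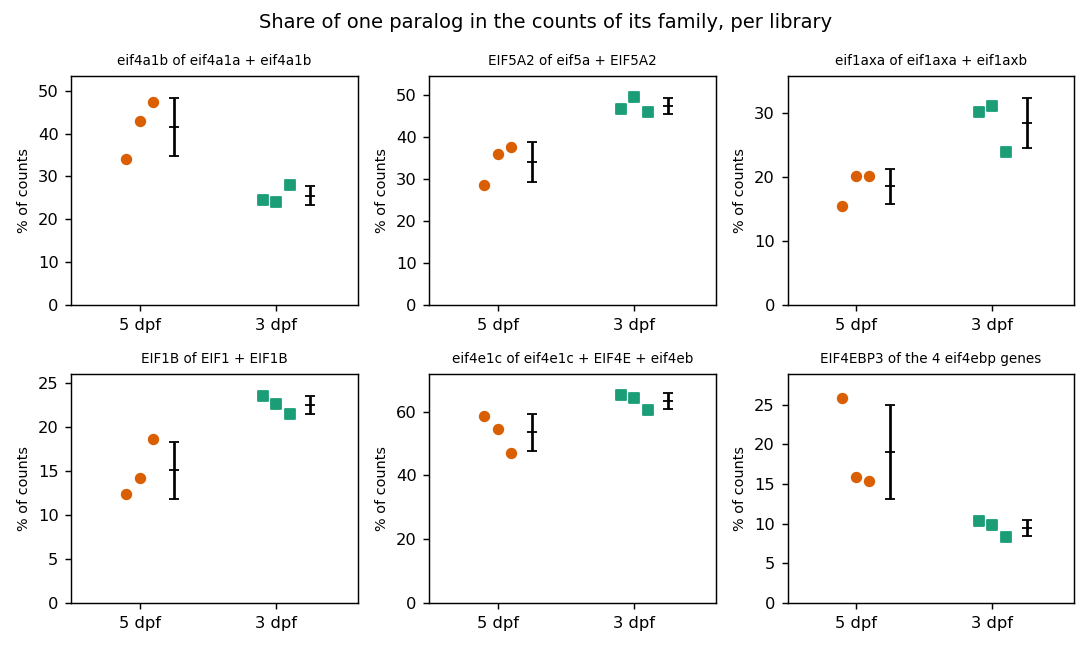
For 6 paralog families, the share of 1 gene in the counts of its family (vertical axis, %) is plotted per library, with orange circles for 5 dpf and green squares for 3 dpf, and black bars for the mean ± SD of 3 libraries. The shares of eif4a1b and EIF4EBP3 are higher at 5 dpf, and those of EIF5A2, eif1axa, EIF1B and eif4e1c are lower. The ages do not overlap in any panel, but the panels were picked from a larger set of shares. The shares of lars1a, EIF4E, EIF4EBP2 and eif4ebp3 overlapped and are not drawn.

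eIF3, the large complex that bridges mRNA and small subunit, had a share of genes that fell near that of all genes. Of 17 genes 2 fell and 0 rose, or 11.8% that fell against 14.1% of all genes tested. The median log2 fold change was -0.31, and 15 of 17 values were negative with TMM scaling. The subunit that fell furthest was EIF3J (ENSDARG00000012603, chromosome 25, 31900825 to 31907672), which binds the complex loosely, with 40.2, 29.4 and 27.0 CPM at 5 dpf, against 58.2, 67.6 and 51.8 CPM at 3 dpf (log2 fold change -0.88, SE 0.22, edgeR adjusted p = 0.0208). The other EIF3J copy (ENSDARG00000053370), chosen after its values were seen, had 81.3, 44.7 and 31.2 CPM at 5 dpf, against 53.1, 55.5 and 44.1 CPM at 3 dpf and overlapped (log2 fold change 0.04, SE 0.34, edgeR adjusted p = 0.938). EIF3E (chromosome 19, 22622355 to 22664398), a minor copy beside the abundant eif3ea, had 6.73, 8.14 and 8.87 CPM at 5 dpf, compared with 11.6, 13.7 and 12.4 CPM at 3 dpf (log2 fold change -0.67, SE 0.20, edgeR adjusted p = 0.0402). EIF3J passed in 2 of the 6 omissions and EIF3E in 1.

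The most abundant eIF3 genes by CPM, EIF3A and EIF3B, lay lower without passing. EIF3A (chromosome 13, 19283936 to 19317569), the scaffold subunit, had 653, 586 and 593 CPM at 5 dpf, against 1054, 999 and 849.7 CPM at 3 dpf (log2 fold change -0.66, SE 0.22, edgeR adjusted p = 0.0533). EIF3B (ENSDARG00000059654), another core subunit, had 679, 589.8 and 549 CPM at 5 dpf, against 923, 832 and 784 CPM at 3 dpf (log2 fold change -0.48, SE 0.22, edgeR adjusted p = 0.131). In both every 5 dpf library was below every 3 dpf library. This held in 6 of the 17 genes, or 35.3%, against 24.2% of all genes tested, so nothing is read from this count. The other 11 overlapped, among them the abundant EIF3I (log2 fold change -0.19), EIF3M (-0.15) and EIF3F (-0.06). Across the 14 eIF3 genes with a mean of at least 25 CPM, levels per kb of exon ran from 15.9 to 227 CPM per kb at 5 dpf and from 25.2 to 318 CPM per kb at 3 dpf. The remaining 3 were EIF3E, the EIF3B copy ENSDARG00000074213 with at most 0.143 CPM in any library, and the EIF3H copy ENSDARG00000036116 with 1.03, 2.11 and 1.94 CPM at 5 dpf, compared with 0.763, 0.486 and 1.19 CPM at 3 dpf. The number of eIF3 genes that fell was 8, 0 and 0 without 5 dpf replicates 1, 2 and 3 in turn, and 0, 0 and 1 without 3 dpf replicates 1, 2 and 3 in turn, and 13 with both 5 dpf replicate 1 and 3 dpf replicate 3 left out. EIF6, which keeps ribosomal subunits apart, had 96.3, 60.5 and 52.4 CPM at 5 dpf, against 108, 118 and 78.8 CPM at 3 dpf and did not pass (log2 fold change -0.54, SE 0.28, edgeR adjusted p = 0.183). Leaving out 5 dpf replicate 1 brought it to -0.84 and past the threshold, with an edgeR adjusted p of 0.0109.

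The genes of elongation and release, with the enzymes that modify the factors, had no common direction. Those that fell were EIF5A2, EEF1E1, ETF1 and the methyltransferase genes EEF1AKMT2 and EEF1AKMT4. Those that rose were EEF2, both EEF1A1 copies and the kinase gene EEF2K. Of 20 genes tested 5 fell and 4 rose, or 25% and 20%, against 14.1% and 18.1% of all genes tested. Their median log2 fold change was -0.23, or -0.05 over the 16 left when the enzymes that modify the factors are set aside. Their summed level was 31299, 20870.2 and 18899 CPM at 5 dpf, against 26072, 23485 and 20962 CPM at 3 dpf, with 5 dpf replicate 1 highest and the other 5 dpf libraries lowest. As a share of raw counts the sum was 1.92, 2.37 and 2.39% at 5 dpf and 2.66, 2.35 and 2.33% at 3 dpf, where 5 dpf replicate 1 was lowest. The position of that library thus turned with the scaling. Its mitochondrial share of 29.2% and its TMM factor of 0.612, against 1.001 to 1.266 in the other libraries, moved with this result, and their part in it was not tested.

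The factors that carry most of elongation did not pass. eef1a1l1 (chromosome 19, 43119014 to 43137740), the main eEF1A gene, which brings charged tRNAs to the ribosome, had 16463, 10736 and 9490.5 CPM at 5 dpf, against 11940.2, 10573 and 9777 CPM at 3 dpf (log2 fold change 0.18, SE 0.36, edgeR adjusted p = 0.724). eef2b (chromosome 2, 57149002 to 57174954), the main eEF2 gene, which moves the ribosome along, had 8429, 6144 and 5751 CPM at 5 dpf, compared with 8176, 7103 and 6348 CPM at 3 dpf (log2 fold change -0.09, SE 0.32, edgeR adjusted p = 0.854). In both, 5 dpf replicate 1 was highest and the ages overlapped. Per kb of exon eef2b stood at 2381 CPM per kb at 5 dpf and 2534 CPM per kb at 3 dpf, and eef1a1l1 at 2086 CPM per kb at 5 dpf and 1836 CPM per kb at 3 dpf. This order is the reverse of that by CPM. It rests on the exon lengths of the gene models, 5863 bases for eef1a1l1 and 2845 for eef2b. The subunits that recharge eEF1A also overlapped, except eef1da, whose 5 dpf libraries were all above 3 dpf without passing (log2 fold change 0.56, edgeR adjusted p = 0.175). EEF1B2 was at -0.00, EEF1G at 0.15 and EEF1D at 0.27, values chosen after they were seen.

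Of the minor copies of the same factors 3 rose, and 2 lay lower without passing. EEF2 (ENSDARG00000035256, chromosome 5, 41485277 to 41494831), a copy listed under the human-style symbol, had 22.6, 27.5 and 26.6 CPM at 5 dpf, against 11.3, 11.7 and 15.9 CPM at 3 dpf, with every 5 dpf library higher (log2 fold change 0.98, SE 0.21, edgeR adjusted p = 0.0123). Of the other minor eEF2 copies, both chosen after their values were seen, eef2a.1 (chromosome 22, 20135443 to 20143425) had 137, 74.3 and 51.5 CPM at 5 dpf, against 232, 251 and 107 CPM at 3 dpf, with overlap, and did not pass (log2 fold change -1.17, SE 0.44, edgeR adjusted p = 0.0808). eef2a.2, on the same chromosome, had 20.1, 16.0 and 15.0 CPM at 5 dpf, compared with 27.6, 38.5 and 20.2 CPM at 3 dpf, every 5 dpf library lower, and did not pass (log2 fold change -0.75, SE 0.27, edgeR adjusted p = 0.0680). In the counts of eef2a.1 and eef2b together, eef2a.1 made up 1.6, 1.19 and 0.887% at 5 dpf and 2.76, 3.41 and 1.65% at 3 dpf, lower in every 5 dpf library (exact permutation p = 0.1). Of the 5 eEF1A genes, 2 under the symbol EEF1A1 rose at very low levels. EEF1A1 on chromosome 1 (ENSDARG00000069951) had 1.31, 1.55 and 2.82 CPM at 5 dpf, against 0.0382, 0.362 and 0.246 CPM at 3 dpf (log2 fold change 3.13, SE 0.75, edgeR adjusted p = 0.0176). EEF1A1 on chromosome 13 (ENSDARG00000039502) had 0.904, 2.27 and 2.7 CPM at 5 dpf, compared with 0.181, 0.327 and 0.556 CPM at 3 dpf (log2 fold change 2.46, SE 0.59, edgeR adjusted p = 0.0176). Both stood above every 3 dpf library at 5 dpf, at levels far under eef1a1l1. eef1a2 had 0 counts in every library, and eef1a1l3 had 11 counts in 5 dpf replicate 2 and 0 elsewhere, so neither was tested. Levels of near-identical eEF1A and eEF2 copies are uncertain, because reads that fit several of them were left uncounted. EEF2 passed in 4 of the 6 omissions, with edgeR adjusted p up to 0.0759, and the EEF1A1 copies on chromosomes 1 and 13 passed in 4 and 2.

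EEF2K (chromosome 12, 10381957 to 10409970), the kinase that switches eEF2 off, had 75.4, 72.5 and 71.4 CPM at 5 dpf, against 53.3, 49.1 and 42.0 CPM at 3 dpf and rose (log2 fold change 0.60, SE 0.17, edgeR adjusted p = 0.0348). The 5 dpf libraries were close together and all above 3 dpf. Even so, the call was made in 1 of the 6 omissions, with edgeR adjusted p up to 0.133. EEF1AKMT2 (chromosome 17, 31820401 to 31823970), a methyltransferase of eEF1A, had 6.69, 4.34 and 4.66 CPM at 5 dpf, against 11.8, 12.3 and 8.98 CPM at 3 dpf and fell (log2 fold change -1.08, SE 0.26, edgeR adjusted p = 0.0178). EEF1AKMT4 also fell (log2 fold change -1.23), at 2.11 to 7.13 CPM, and EEF1AKMT1 did not pass (-0.78).

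EIF5A2 fell and its paralog eif5a did not pass. eIF5A carries the modified amino acid hypusine and helps ribosomes through stretches that stall them. EIF5A2 (chromosome 2, 25839193 to 25845337) had 469, 414 and 435 CPM at 5 dpf, compared with 1085, 1135 and 871 CPM at 3 dpf, without overlap, and passed in all 6 omissions (log2 fold change -1.23, SE 0.23, edgeR adjusted p = 0.00757). eif5a had 1175, 736 and 725 CPM at 5 dpf, against 1245, 1162 and 1022 CPM at 3 dpf, with overlap (log2 fold change -0.38, SE 0.28, edgeR adjusted p = 0.331). EIF5A2 made up 28.5, 36 and 37.5% of the counts of both at 5 dpf and 46.6, 49.4 and 46.0% at 3 dpf, lower in every 5 dpf library (exact permutation p = 0.1). Of the enzymes that make hypusine, dohh fell (log2 fold change -0.90, SE 0.23, edgeR adjusted p = 0.0231) and DHPS did not pass (log2 fold change -0.48), both chosen after their values were seen.

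Of the release factor genes 1 fell and 1 did not pass. ETF1 (chromosome 10, 21434649 to 21444731), the eRF1 gene that reads the stop codon, had 323, 230.0 and 192 CPM at 5 dpf, against 470.0, 467 and 376 CPM at 3 dpf and fell (log2 fold change -0.82, SE 0.26, edgeR adjusted p = 0.0460). It passed in 1 of the 6 omissions. etf1a, the minor copy, had 8.68, 1.39 and 4.79 CPM at 5 dpf, compared with 9.63, 12.7 and 13.9 CPM at 3 dpf and did not pass (log2 fold change -1.29, SE 0.57, edgeR adjusted p = 0.122). Both lay below their 3 dpf range in every 5 dpf library. Their partner GSPT1 (ENSDARG00000098627), the eRF3 GTPase, had 312, 260.2 and 273 CPM at 5 dpf, against 627, 622 and 479.8 CPM at 3 dpf and fell (log2 fold change -1.03, SE 0.22, edgeR adjusted p = 0.0123). ABCE1, which splits the ribosome after release, had 226, 153 and 142 CPM at 5 dpf, against 366, 365 and 265 CPM at 3 dpf and fell as well (log2 fold change -0.94, SE 0.26, edgeR adjusted p = 0.0311). GSPT1 and ABCE1 were chosen from the partner list after their values were seen.

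Outside the name rule, the same machinery had 31 tested partner factors, of which 11 fell and 2 rose, with a median log2 fold change of -0.48. That is 35.5% and 6.45%, against 14.1% and 18.1% of all genes tested. pabpc1b (chromosome 19, 12121944 to 12145765), a poly(A)-binding protein gene, had 70.9, 84.3 and 65.2 CPM at 5 dpf, compared with 18.7, 17.5 and 29.9 CPM at 3 dpf, rose, and passed in all 6 omissions (log2 fold change 1.74, SE 0.26, edgeR adjusted p = 0.00407). Its much more abundant paralog pabpc1a, chosen afterwards, had 3760.0, 1572 and 1421 CPM at 5 dpf, against 2215, 2185 and 1833 CPM at 3 dpf and did not pass (log2 fold change 0.12). The ABCF2 copy ENSDARG00000052331 had 6.38, 3.92 and 3.25 CPM at 5 dpf, against 1.44, 2.00 and 1.37 CPM at 3 dpf and rose (log2 fold change 1.49, SE 0.35, edgeR adjusted p = 0.0169). larp4aa, an RNA-binding protein gene, had 40.5, 49.4 and 54.8 CPM at 5 dpf, compared with 119, 115.5 and 86.9 CPM at 3 dpf and fell (log2 fold change -1.15, SE 0.21, edgeR adjusted p = 0.00776). ABCF1, an ATPase that binds ribosomes and eIF2, had 203, 98.5 and 120.3 CPM at 5 dpf, against 312, 318 and 273 CPM at 3 dpf and fell (log2 fold change -1.10, SE 0.30, edgeR adjusted p = 0.0273).

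Genes of the kinases and inputs that control the factors were near the median of all genes. Of 30 tested, 2 rose and 3 fell, or 6.67% and 10%, against 18.1% and 14.1% of all genes tested. The median log2 fold change was -0.09, which was 0.05 with upper quartile scaling. The MKNK2 copy ENSDARG00000011373, for a kinase of eIF4E, had 134, 15.7 and 17.2 CPM at 5 dpf, against 5.45, 6.82 and 2.11 CPM at 3 dpf and rose (log2 fold change 3.54, SE 0.94, edgeR adjusted p = 0.0255). Most of that difference came from 5 dpf replicate 1, and without it the log2 fold change was 1.79. sesn3, whose product restrains the growth kinase mTORC1, had 92.0, 122 and 94.6 CPM at 5 dpf, compared with 48.5, 39.5 and 55.9 CPM at 3 dpf and rose (log2 fold change 1.1, SE 0.22, edgeR adjusted p = 0.00909). eif2ak1, an eIF2 kinase that senses haem, had 13.4, 14.4 and 10.7 CPM at 5 dpf, against 32.3, 32.0 and 22.3 CPM at 3 dpf and fell (log2 fold change -1.17, SE 0.23, edgeR adjusted p = 0.00866). DDIT4, another restraint on mTORC1, had 7.45, 9.89 and 6.95 CPM at 5 dpf, against 17.0, 10.0 and 18.7 CPM at 3 dpf, with 3 dpf replicate 2 near the 5 dpf values, and fell (log2 fold change -0.91, SE 0.29, edgeR adjusted p = 0.0459).

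In mammals the transcription factor ATF4 raises many cytosolic synthetases along with genes of amino acid supply. Of 32 tested genes on a list of such ATF4 response genes 7 fell and 3 rose, with a median log2 fold change of -0.14. These are 21.9% and 9.38% of the list, against 14.1% and 18.1% of all genes tested, so nothing is read from the count about the list. PSAT1, of serine synthesis, had 13.5, 13.4 and 14.5 CPM at 5 dpf, compared with 74.0, 57.2 and 53.2 CPM at 3 dpf and fell (log2 fold change -2.16, SE 0.20, edgeR adjusted p = 0.00121). MTHFD1L, of mitochondrial folate metabolism, had 1.61, 4.22 and 3.74 CPM at 5 dpf, against 16.1, 11.1 and 8.09 CPM at 3 dpf and fell (log2 fold change -1.88, SE 0.42, edgeR adjusted p = 0.0143). In both every 5 dpf library was lower than every 3 dpf library. pck2, a mitochondrial enzyme of gluconeogenesis, had 520.2, 221 and 241 CPM at 5 dpf, against 59.3, 78.5 and 46.7 CPM at 3 dpf and rose (log2 fold change 2.41, SE 0.40, edgeR adjusted p = 0.00530). Of transporters, slc7a11, a cystine transporter gene, had 1.19, 1.21 and 0.690 CPM at 5 dpf, compared with 0.229, 0.318 and 0.222 CPM at 3 dpf and rose (log2 fold change 2.00, SE 0.44, edgeR adjusted p = 0.0131). The ATF4 genes themselves, chosen after their values were seen, overlapped between the ages. The gene atf4a had 646, 511 and 301 CPM at 5 dpf, against 613, 466 and 537 CPM at 3 dpf. The gene atf4b had 1017, 681 and 436 CPM at 5 dpf, against 736, 608 and 609.6 CPM at 3 dpf (log2 fold changes -0.15 and 0.13).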

How the data were processed

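RNA from sorted cells of pooled fish was made into libraries and sequenced, 3 libraries at each age. The authors counted read pairs per gene over exons with featureCounts 1.6.3 and strand setting 2, per the file headers, and deposited the raw counts, not normalized. The annotation was Ensembl release 115 on GRCz11. Reads over more than 1 gene or place were dropped, per the file headers. Trimmomatic 0.38, STAR 2.7.11 and Subread 1.6.3 are named in the submitters' processing notes. A symbol was found for 29201 of 32520 gene IDs. Symbols in capitals are human-style, and 16 of the 116 genes share theirs, so IDs are given for these. The gene eprs1 was taken because the rule names it.

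Testing used edgeR 4.0.16 in R 4.3.3: a two-sided quasi-likelihood F-test with TMM scaling and no term besides age. Genes passed filterByExpr at its count minimum of 10 and total minimum of 15, and p-values were adjusted by Benjamini-Hochberg over the 22386 genes left, at 0.05. "Rose" and "fell" are used of genes that passed. Levels are CPM on TMM-scaled library sizes, and levels per length divide by kb of exon as the files give it. Comparisons of genes per kb thus depend on the exon length of each gene model. The SE of a log2 fold change follows from its F statistic. Replicates are pools, so a p-value reflects variation between pools, which may be technical. The fit was tested on simulated data.

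The genes, the partner and marker lists and the settings were chosen with earlier results of these data known, so none is independent support. The named genes followed a rule: from each role, genes that passed at 5 CPM or more, up to 4 with the largest change in each direction, and the 2 most abundant genes. EIF6, both etf1 genes and up to 2 genes per direction from each partner list were added. The eef1a, eif4e, eif4a, eif4g, eif4ebp and eif5a families were described with all copies. Values of 1 synthetase gene are not reported here. Others are said to be chosen after their values were seen. Of the 32 partner factor symbols 3 matched no gene. Shares of families were compared with exact permutation tests over libraries. The settings varied were the scaling (RLE, upper quartile, library size), the filter, the tool (DESeq2 1.42.0), a replicate block, and the libraries and chromosomes left out.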

Additional observations from a re-analysis of the deposited data

How the results depend on the processing

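Without each library in turn, 3003 to 10628 of all genes passed, against 7194 with all libraries. Among the translation genes 1 to 6 rose and 13 to 80 fell, with a median log2 fold change of -0.85 to -0.60. Of the initiation factors 0 to 2 rose and 4 to 42 fell, with a median of -0.71 to -0.50, of the elongation and release factors 1 to 4 rose and 1 to 10 fell, with a median of -0.53 to -0.12. Of the synthetases 5 to 16 cytosolic and 3 to 12 mitochondrial genes fell, with medians of -1.11 to -0.92 and -0.90 to -0.48. Without both 5 dpf replicate 1 and 3 dpf replicate 3, 11902 genes passed in all, and 89 translation genes, 48 initiation factors, 11 elongation and release factors, 17 cytosolic and 13 mitochondrial synthetases fell, while 2 initiation factors rose. The medians were then -0.94 for the translation genes, -0.77 for initiation, -0.64 for elongation and release, -1.24 for cytosolic and -1.07 for mitochondrial synthetases.

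With library size as the only scaling 3849 genes passed, 2 translation genes rose, both of elongation, 0 initiation factors rose and 2 mitochondrial synthetases fell. RLE size factors gave 0 initiation factors that rose. Upper quartile scaling moved the median of all genes from 0.09 to 0.22 and that of the translation genes from -0.67 to -0.54, and of the genes that passed 65.3% were then higher at 5 dpf, as with library size, against 56.2%. When a gene had to reach 1 CPM in 3 libraries, 3 translation genes rose, 2 of them of elongation. Of 869 values of 58 single genes under other settings, 132 lost their call without a change of direction, and 25 gained a call. The cause was not tested. Equal replicate numbers are not tied to a shared day, and deviations of same-numbered libraries correlated at 0.092, -0.217 and 0.193. With a replicate block 3 translation genes rose and 40 fell, and 0 initiation factors rose.

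Depth limits the minor EEF1A1, EIF3B and EIF4E1B copies, since few counts lie behind them. Sequences of the genes were not used here.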
